A study of Mus musculus with 10 samples.

Results

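Transcript levels of 9 transcription factors of the intestinal epithelium, Cdx1, Cdx2, Hnf4a, Hnf4g, Gata4, Gata6, Elf3, Klf5 and Mecom, were read on arrays from B6xBALB F2 mice, the grandchildren of a cross of C57BL/6 with BALB/c. All probe sets that the platform annotation gives to these symbols were taken, which made 22 of the 45037 probe sets of the array that are not array controls, and 9 of 18193 named genes. The mice were 5 knockouts coded H and 3 coded L, all labelled CF knockout (cystic fibrosis, the disease of the chloride channel gene Cftr), and 2 animals labelled CF control. The letters H and L, and the D in the codes of both controls, are not spelled out in the labels. The series title speaks of variable weight. The disrupted allele, age, diet and housing of the animals were not stated in the labels. Besides the group, a sample's code holds M (6 samples) or F (4 samples) and a number lying in a lower range (3 knockouts and both controls) or an upper range (5 knockouts). Nothing in the labels besides the number says that each sample is a separate animal, so the p-values below measure only the spread between these samples. The labels name right lung as the tissue, while the title names the intestine.

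CDX1 and CDX2 are homeobox proteins that set and maintain intestinal identity, and CDX2 is the master regulator of the intestinal epithelium. HNF4A and HNF4G are orphan nuclear receptors that act together with CDX2 on enterocyte genes, and GATA4 and GATA6 are zinc finger proteins that set regional identity, GATA4 in the proximal small intestine. ELF3 is an ETS factor of epithelia needed for enterocyte differentiation, KLF5 is a zinc finger protein of proliferating crypt cells, and MECOM (also EVI1 and PRDM3) is a zinc finger regulator best known from blood stem cells.

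The whole-series checks were as follows. Cftr lay between 19.7 and 35.5 in the 8 knockouts and between 131 and 137 in the 2 controls (linear intensity). Markers of small intestine epithelium were bright on every array (7 genes measured, median gene at the 99.4 percentile of all genes), and so were pan-epithelial markers (8 genes, 99.5 percentile). Alveolar type 2 markers were also measured, with a summed intensity of 1657 to 6072 in knockouts and 1737 to 1891 in controls over 7 genes. Their median gene lay at the 82 percentile and that of 5 club cell markers at the 89.6 percentile, so lung transcripts were clearly present. The surfactant gene Sftpc (1099 to 4169) and the club cell gene Scgb1a1 (2011 to 5610) were bright, and Nkx2-1, a defining transcription factor of lung epithelium, was the 1 alveolar marker under 20 on every array (array medians 18.4 to 18.9). GATA6, ELF3 and KLF5 are also made in lung epithelium. Knockout H replicates 2 and 5 were the highest in lung markers. In such bulk tissue, fewer cells of a type and less RNA per cell cannot be told apart.

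Of the 9 factors, Cdx2 fell and Elf3 and Mecom rose in the knockouts, and the other 6 did not pass the test. Cdx2 was 1.80-fold lower, Elf3 1.49-fold higher and Mecom 2.85-fold higher, as folds of intensity + 16 adjusted for number range and letter. The test was limma over 13644 genes with Benjamini-Hochberg adjustment at 0.05. It called 4.31% of all genes, 2.79% lower and 1.52% higher. The median log2 difference of the 9 was 0.07, against -0.0047 over all genes tested. All 8 knockouts lay below both controls for Cdx2 and above both for Elf3, Klf5 and Mecom. Of all genes tested, 11.7% had all 8 knockouts below both controls and 10% above both, 21.8% together. Without control replicate 1 or without control replicate 2 no member passed, so the 3 calls rest on both controls.

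**Figure D1:**
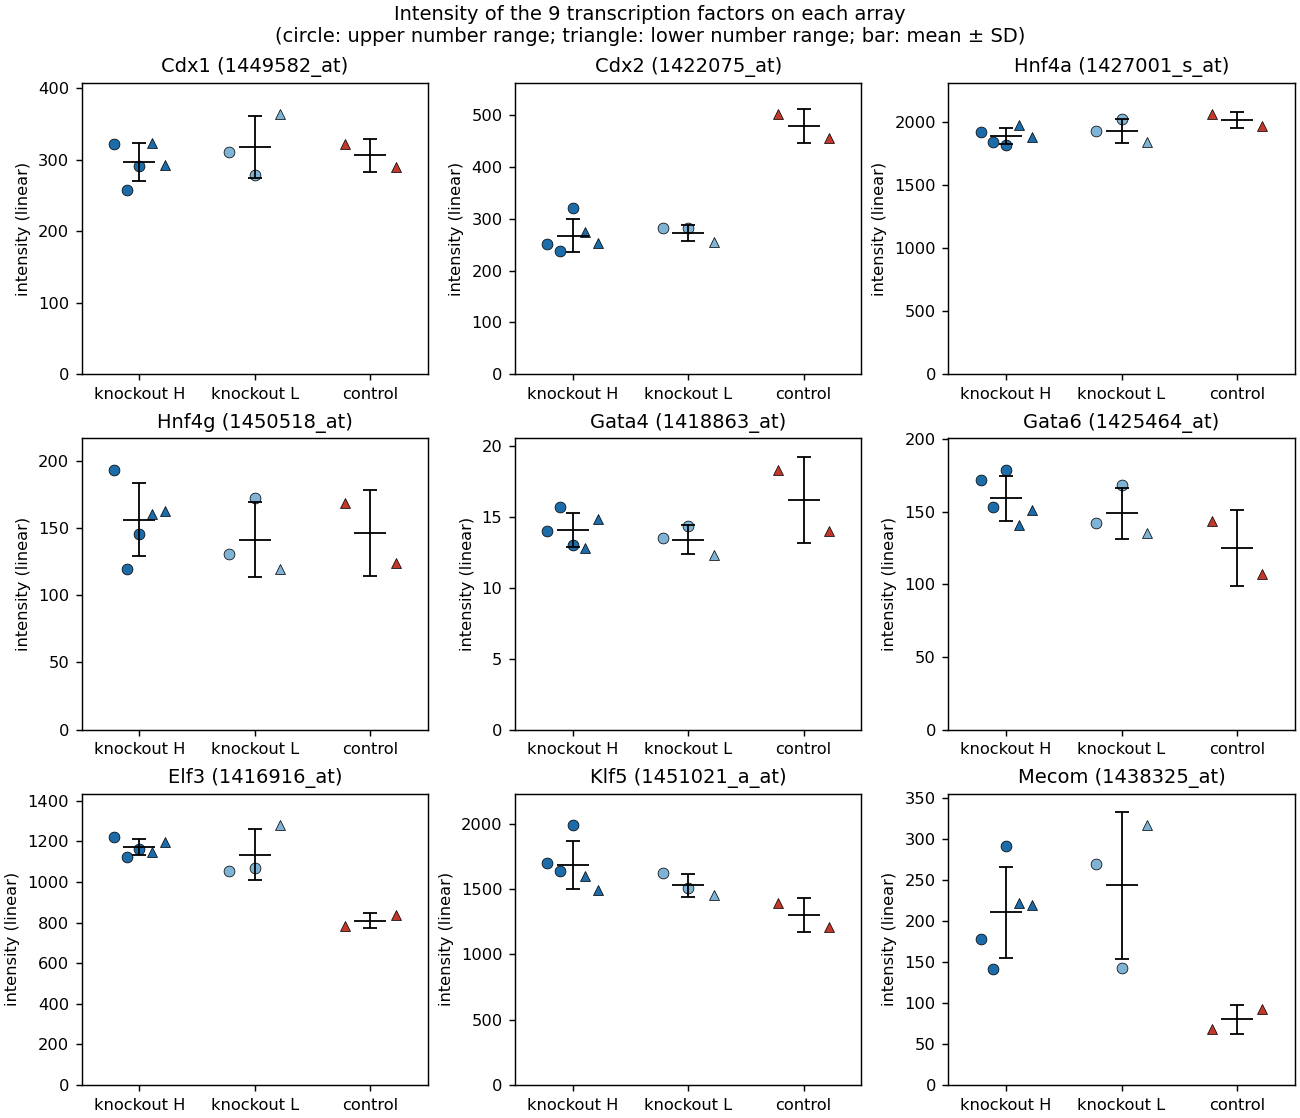
Linear intensity of the probe set used for each of the 9 factors on each of the 10 arrays, by group, with circles for the upper and triangles for the lower number range and bars for mean ± SD. Cdx2 (controls 456 and 502, knockouts at most 321) and Elf3 and Mecom show separate groups, while Cdx1, Hnf4a, Hnf4g, Gata4 and Gata6 overlap.

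Cdx2 was read by 2 probe sets, which went the same way. On 1422075_at the 5 knockouts H read 252, 237, 321, 275 and 254 and the 3 knockouts L 282, 282 and 255. The 2 controls read 502 and 456. The knockouts thus formed a narrow band well below both controls, and H and L lay within it together. The means were 268 ± 32.5 (SD, n = 5), 273 ± 15.7 (n = 3) and 479 ± 32.5 (n = 2), so that knockouts differed by -0.85 ± 0.12 on the log2 scale (standard error; limma adjusted p = 0.0111; 95% confidence interval -1.11 to -0.59). On 1422074_at the 8 knockouts lay between 147 and 188 (median 173) and the controls at 328 and 248. There the difference was -0.68 ± 0.11 (limma adjusted p = 0.0174 over all 26208 probe sets tested, of which 3.40% passed). Within the lower number range alone, with 3 knockouts and 2 controls, the difference of Cdx2 was -0.84 (limma adjusted p = 0.00359). It was -0.81 (limma adjusted p = 0.156) without control replicate 1 and -0.89 (0.0712) without control replicate 2.

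Cdx1, the close relative of Cdx2, gave no such separation on its single probe set. Knockouts H read 322, 258, 291, 324 and 292, knockouts L 311, 278 and 364, and the controls 323 and 290.4. The controls lay inside the range of the knockouts. The difference was 0.07 ± 0.11 (limma adjusted p = 0.803; 95% confidence interval -0.19 to 0.33), an interval that does not reach the change of Cdx2.

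Hnf4a was read by 4 probe sets, all well above the array medians, and none of them passed. On 1427001_s_at knockouts H read 1916, 1842, 1817, 1973 and 1881, knockouts L 1923, 2019 and 1835, and controls 2058 and 1966. The groups overlapped, and 6 of 8 knockouts lay below both controls. The difference was -0.10 ± 0.07 (limma adjusted p = 0.502; 95% confidence interval -0.25 to 0.06). The other 3 probe sets gave 0.14, 0.06 and 0.22 (limma adjusted p from 0.595 to 0.908 over probe sets). Their signs thus oppose that of the brightest probe set, and the mean of all 4 gave 0.08.

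For Hnf4g, the paralog of Hnf4a found in gut, the 3 probe sets differed by -0.15, -0.0061 and -0.03. On 1450518_at knockouts H read 193, 119, 146, 160.1 and 163, knockouts L 131, 173 and 119.7, and controls 169 and 124. The single arrays scattered widely in every group, and no group stood apart. The difference on this probe set had a 95% confidence interval of -0.47 to 0.46 (limma adjusted p = 0.992). On 1460127_at knockout H replicate 5 was highest (95.2) and L replicate 3 lowest (42.4).

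Gata4 lay below the median of every array on both of its probe sets. On 1418863_at the knockouts ranged from 12.3 to 15.7 (median 13.8) and the controls read 18.3 and 14, the second of them inside the range of the knockouts. The second, 1418864_at, ranged from 9.80 to 15.4 over all arrays and did not pass the filter on low values. The difference on the first was -0.13 ± 0.08 (limma adjusted p = 0.438).

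Gata6, in contrast, lay above the array medians on all 3 of its probe sets. On 1425464_at knockouts H read 172, 153, 179, 141 and 151, knockouts L 143, 169 and 136, and controls 144 and 107. Control replicate 1 fell among the knockouts, and control replicate 2 was the lowest array. The difference was 0.17 ± 0.12 (limma adjusted p = 0.529; 95% confidence interval -0.12 to 0.45). The second probe set, 1425463_at, put all 8 knockouts (110.0 to 139.7) above both controls (108 and 100.3), but its difference of 0.25 ± 0.11 did not pass (limma adjusted p = 0.277). The third gave 0.04 ± 0.08.

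Elf3 stood out by its even rise. Knockouts H read 1222, 1124, 1162, 1147 and 1195, knockouts L 1053, 1071 and 1280.1, and controls 782 and 836. All 8 knockouts lay above both controls, and H and L overlapped. The means were 1170.0 ± 39.1 (SD, n = 5), 1135 ± 126 (n = 3) and 809 ± 38.0 (n = 2), with a difference of 0.58 ± 0.09 (limma adjusted p = 0.0141; 95% confidence interval 0.38 to 0.77). Within the lower number range it was 0.57 (limma adjusted p = 0.0123). Without control replicate 1 it was 0.55 (limma adjusted p = 0.162) and without control replicate 2 it was 0.60 (0.0813). Elf3 has 1 probe set on this array.

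Mecom rose most of the 9 and varied most between arrays. On 1438325_at knockouts H read 178, 142, 291, 222 and 219.5, knockouts L 269.6, 143 and 317, and controls 67.6 and 92.7. The lowest knockouts, H replicate 2 and L replicate 2, still lay above both controls, and the other 6 knockouts spread from 178 to 317. The 3 highest knockouts, L replicates 3 and 1 and H replicate 3, were also the highest in smooth muscle markers. That link was not tested. The means were 210.4 ± 55.7 (SD, n = 5), 243 ± 89.8 (n = 3) and 80.2 ± 17.8 (n = 2), with a difference of 1.51 ± 0.31 (limma adjusted p = 0.03; 95% confidence interval 0.82 to 2.21). Within the lower range it was 1.48 (limma adjusted p = 0.00558). The call was lost without knockout H replicate 4 (1.55, limma adjusted p = 0.0839), knockout L replicate 3 (1.31, 0.0784), control replicate 1 (1.40, 0.267) and control replicate 2 (1.61, 0.155). It was also lost with a pseudocount of 64 (1.15, 0.0517). The other 2 Mecom probe sets read 6.04 to 10.7 on all arrays, under the filter. With them averaged in, the difference was 0.55 (limma adjusted p = 0.0472). Which parts of the transcripts the probe sets cover is not given in the sources used here.

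Klf5, read by 3 probe sets, did not pass although all 8 knockouts lay above both controls on the brightest. On 1451021_a_at knockouts H read 1701, 1642, 1992, 1602 and 1491, knockouts L 1625, 1508 and 1453, and controls 1397 and 1212. The gap between the lowest knockout and the higher control was smaller than the spread of the knockouts. The difference was 0.22 ± 0.12 (limma adjusted p = 0.367; 95% confidence interval -0.05 to 0.49). On 1451739_at it was -0.04 ± 0.15, and the dim 1430255_at (14.5 to 18.8) gave 0.02 ± 0.07.

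The windows upstream of the 3 factors that changed are shown so that a reader can see what the promoters of genes that moved in opposite directions hold. They are the 250 bases before the annotated start, from RefSeq on GRCm38.p6, 5′ to 3′ on the gene's strand. Capitals mark matches, on both strands, to 5 short motifs of the factors' families: TTTAT for CDX, AGATAA for GATA, CAAAGNNCA for HNF4, AGGAAGT for ETS and CCACCC for KLF factors. No motif contains another, though matches may overlap. Of 32851 promoter windows of this length, 37.3%, 10%, 5.5%, 7.7% and 28.1% hold them. Windows were read for 4 of the 9 genes (the fourth is Hnf4a), and Mecom has 2 starts. The search left out part of the genome, so the absence of the other genes does not show that they lack an entry.
Cdx2, chr5:147307250-147307499, minus strand: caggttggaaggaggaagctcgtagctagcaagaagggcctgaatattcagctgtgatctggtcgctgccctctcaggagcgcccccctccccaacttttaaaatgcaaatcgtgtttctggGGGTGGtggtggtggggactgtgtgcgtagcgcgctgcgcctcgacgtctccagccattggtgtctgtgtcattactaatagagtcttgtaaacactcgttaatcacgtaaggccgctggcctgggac
Elf3, chr1:135258473-135258722, minus strand: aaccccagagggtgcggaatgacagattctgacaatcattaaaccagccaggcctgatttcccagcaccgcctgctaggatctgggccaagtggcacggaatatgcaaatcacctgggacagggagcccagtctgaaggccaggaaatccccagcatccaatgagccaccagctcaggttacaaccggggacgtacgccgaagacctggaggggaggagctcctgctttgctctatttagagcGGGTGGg
Mecom, upstream start, chr3:30509760-30510009, minus strand: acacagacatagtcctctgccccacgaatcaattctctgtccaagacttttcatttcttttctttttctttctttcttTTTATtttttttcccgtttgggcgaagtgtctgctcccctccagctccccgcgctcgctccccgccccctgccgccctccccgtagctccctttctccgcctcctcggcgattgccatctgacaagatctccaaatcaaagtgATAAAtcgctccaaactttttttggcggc
Mecom, downstream start, chr3:30013205-30013454, minus strand: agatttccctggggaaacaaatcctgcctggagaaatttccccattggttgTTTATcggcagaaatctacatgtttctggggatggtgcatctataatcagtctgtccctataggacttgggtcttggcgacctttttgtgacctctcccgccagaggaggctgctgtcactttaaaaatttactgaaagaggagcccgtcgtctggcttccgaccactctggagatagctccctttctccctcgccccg
The windows of Cdx2 and Elf3, which moved in opposite directions, each hold 1 match to the KLF motif, GGGTGG on the shown strand, at -128 and -7 from the start, and none to the other 4. Those of Mecom hold only matches to the CDX motif, 2 at the upstream start (-172 and, as ATAAA, -29) and 1 at the downstream start (-199). Hnf4a, which did not pass, has 2 windows, not shown, with 2 KLF matches each, and 1 of them also holds a GATA match. These matches describe letters only and are no evidence of binding. The arrays do not tell which Mecom start was used.

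**Figure D2:**
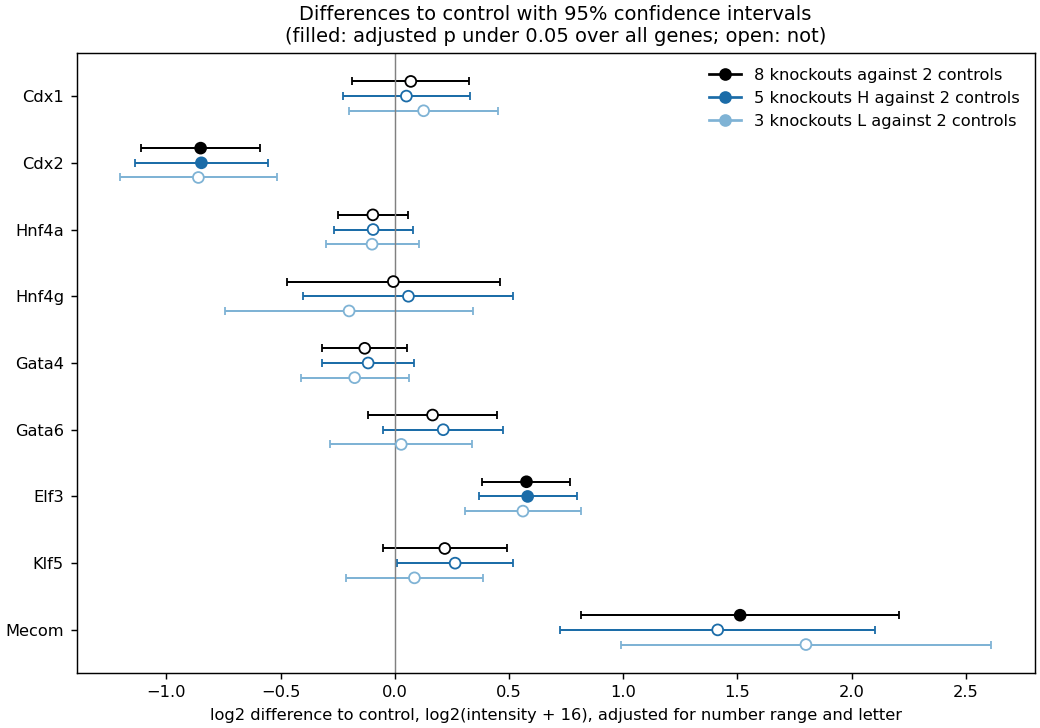
Log2 difference to control of each factor on the log2(intensity + 16) scale with its 95% confidence interval, for all 8 knockouts, for the 5 knockouts H and for the 3 knockouts L, filled where the adjusted p was under 0.05. Cdx2 lies near -0.85 in all 3 comparisons, Elf3 near 0.58 and Mecom between 1.41 and 1.80, and the intervals of H and L overlap for every factor.

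Whether the factors differed between the animals coded H and L was asked in a fit with both groups and the controls. Against control, 2 of 9 members passed in knockouts H, Cdx2 (-0.85) and Elf3 (0.58), with limma adjusted p = 0.0278 and 0.0315, where 2.43% of all genes passed. Mecom (1.41) missed the threshold there (limma adjusted p = 0.0538). In knockouts L 0 of 9 passed in limma, where 0.344% of all genes passed. The unadjusted p was under 0.05 for 1959 of 13644 genes and for 3 of the 9 members. These were Cdx2 (-0.86, limma adjusted p = 0.0638), Elf3 (0.56, 0.0815) and Mecom (1.80, 0.0815). Both sets of values share the same 2 controls. The calls in knockouts H were lost without any 1 of control replicates 1 and 2, knockout H replicates 4 and 5 and knockout L replicates 1, 2 and 3 (limma adjusted p from 0.0518 to 0.263). In knockouts L, Cdx2 passed without knockout H replicate 2 or 3 (limma adjusted p = 0.0486 and 0.0328) and Mecom without the latter (0.0283).

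The direct test of H against L called none of the 9 and 0% of all genes in limma (0 of 9 and 303 of 13644 had an unadjusted p under 0.05). Differences of the 9, H minus L, ran from -0.39 (Mecom) to 0.26 (Hnf4g). For Cdx2 the difference was 0.01 with a 95% confidence interval of -0.24 to 0.27, and for Elf3 0.02 with -0.17 to 0.21. Neither interval reaches the size of these genes' difference to control. For Mecom the interval was -1.0 to 0.22, far wider than those of Cdx2 and Elf3.

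The number range and the letter were examined in the same fit. For upper against lower range 0 of 9 members passed in limma, where 0.3% of all genes passed. Of the 9 only Gata6 (0.26) had an unadjusted p under 0.05, as 1394 of 13644 genes did. For M against F 0 of 9 passed in limma, where 0.022% of all genes passed. None of the 9 had an unadjusted p under 0.05 there, against 659 of 13644 genes. Knockouts of the 2 ranges did not overlap for 3 of the 19 member probe sets tested, near the 13.5% of all probe sets tested for which this held, and none of the 3 passed. They are described here and not read as a result about the factors. On the Hnf4a probe set 1450447_at the 5 knockouts of the upper range read 212 to 267 and the 3 of the lower range 328 to 407, with controls at 389 and 223 (range difference -0.39 ± 0.16, limma adjusted p = 0.383 over probe sets, of which 0.382% passed). The Klf5 probe set 1451739_at went the other way, with 559.8 to 676 in the upper and 374 to 455 in the lower range (0.32 ± 0.11, limma adjusted p = 0.315). The third was the Gata6 probe set 1443081_at (0.21 ± 0.07, limma adjusted p = 0.286). On the brightest probe set of each gene 0 of 9 members separated the ranges, against 11% of all genes.

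**Figure D3:**
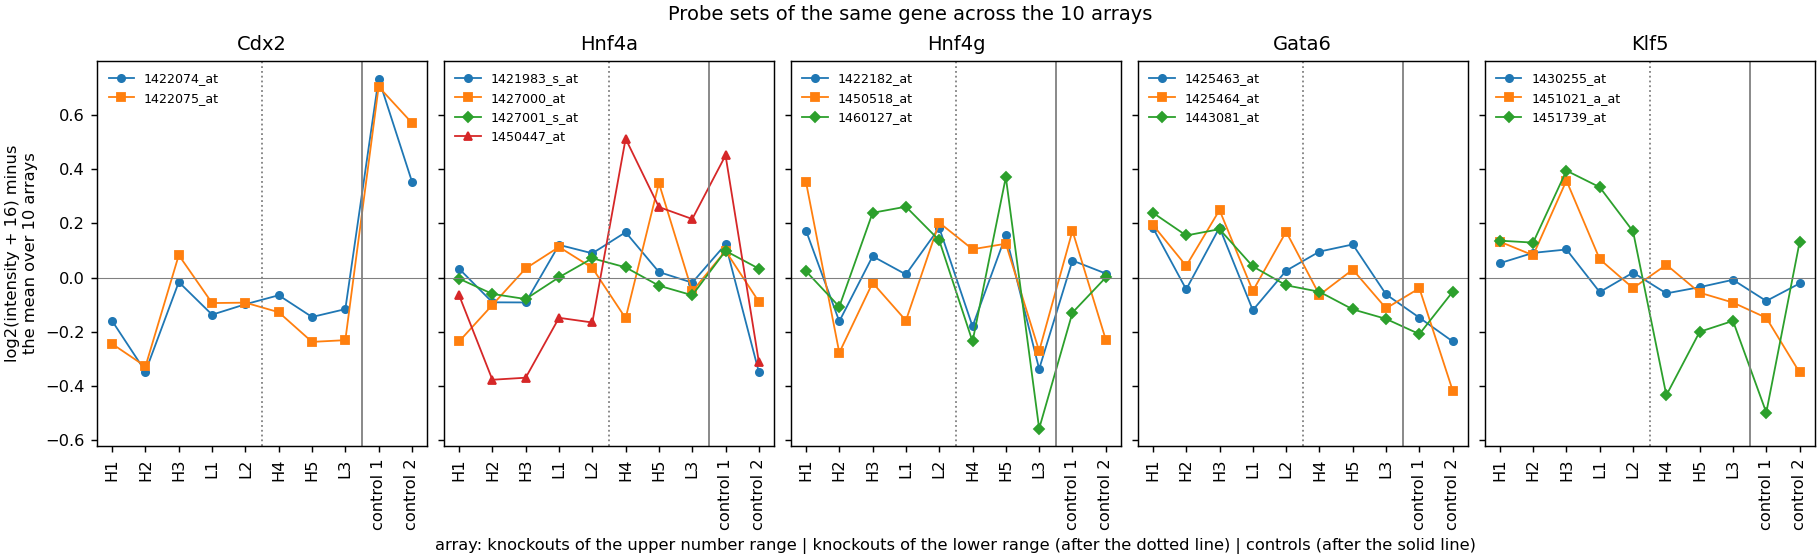
Log2(intensity + 16) of each tested probe set minus its mean over the 10 arrays, for the 5 factors with more than 1 such probe set, with knockouts of the upper range at left, of the lower range in the middle and controls at right. The 2 Cdx2 probe sets move together and jump in the controls. The ranges of the knockouts lie apart on 1 Hnf4a (1450447_at), 1 Klf5 (1451739_at) and 1 Gata6 probe set (1443081_at), a separation that 13.5% of all probe sets show.

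Levels of other cell types were set beside the 3 calls. The crypt markers summed to 3835 to 4429 in knockouts and 2167 to 2214 in controls over 7 genes, without overlap, as Elf3 and Mecom did. Of all genes tested, 10% had all 8 knockouts above both controls. The brightest of the 7 were Olfm4 (mean 1470 in knockouts, 711 in controls) and Prom1 (1392 and 556). Of these 7 genes 3 rose in limma, Cd44 (1.08), Prom1 (1.46) and Olfm4 (0.92), where 1.52% of all genes did. The stem cell genes Lgr5 (-0.42) and Ascl2 (-0.09) did not pass, nor did Top2a (0.29) and Mki67 (0.18). The calls of Cd44 and Prom1 were lost without knockout H replicate 4, L replicate 3 or control replicate 1 (limma adjusted p from 0.0558 to 0.262; 0.74 and 0.97 without that control). That of Olfm4 was lost in 8 alternatives, among them no filter (limma adjusted p = 0.0543), without the 2 arrays highest in lung markers (0.65, 0.0902), without H replicate 5 (0.67, 0.12) and without control replicate 2 (0.58, 0.247). The others leave out L replicate 1, 2 or 3 or control replicate 1 (0.91 to 1.33, limma adjusted p from 0.0557 to 0.0979). Small intestine epithelium markers summed to 20851 to 24831 in knockouts and 27712 to 29493 in controls over 7 genes, lower in all 8 knockouts as Cdx2 was. That sum does not stand for every gene in it. Of the 7, Vil1 (-0.51) and Fabp2 (-0.93) passed, where 2.79% of all genes were called lower. Mep1a (-0.82) and Alpi (-0.96) did not pass, and Krt20 (-0.15), Cdh17 (-0.02) and Lgals4 (0.02) changed little. The part of crypt and small intestine epithelium markers in the calls was not tested. Pan-epithelial markers overlapped between the groups (25034 to 30023 against 28781 to 29218), as did smooth muscle (5122 to 9535 against 4920 to 10225), endothelial (275 to 605 against 311.7 to 321) and leukocyte markers (2338 to 6984 against 4904 to 5672). With pan-epithelial markers as a covariate the differences of Cdx2, Elf3 and Mecom were -0.89, 0.57 and 1.40. With alveolar and club cell markers as a covariate they were -0.79, 0.59 and 1.77, and without the 2 arrays highest in lung markers -0.84, 0.62 and 1.84. All of these passed in limma (adjusted p from 0.000683 to 0.0342). Because pan-epithelial and smooth muscle markers overlapped between the groups, those covariates had little group difference to take out. The crypt and small intestine epithelium markers, whose sums did separate the groups, were not used as covariates. These fits therefore do not show whether the 3 calls depend on the make-up of the epithelium.

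Other genes of the same network were taken from lists, whose counts stand against the 4.31% of all genes called. Of 24 other gut epithelial transcription factors tested, 1 passed, a share near that of all genes, with a list median of 0.02. This was Foxa1, a pioneer factor of endoderm, which rose from 235 ± 11.6 (n = 2) to 353 ± 22.7 (n = 8), a difference of 0.54. Of 17 family relatives, Gata5, a further gut GATA factor, fell (135 ± 11.8 in knockouts, 190.4 ± 17.5 in controls, -0.55) and Klf10 rose (142 ± 14.4 and 94.1 ± 1.77, 0.56). Of 6 cofactors, Ctbp2, a corepressor that binds MECOM, rose (192 ± 15.7 and 152 ± 13.99, 0.42). The 4 calls had limma adjusted p between 0.0168 and 0.0285. All 8 knockouts lay on 1 side of both controls for Foxa1, Gata5, Klf10 and Ctbp2, as for 21.8% of all genes tested. These 4 were named for passing on the same arrays, so this adds nothing to their calls.

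Genes known as targets of CDX proteins had lower values in 10 of 13, with a median of -0.31, and 2 passed, both lower. Of all genes tested 2.79% were called lower, and the median over all of them was -0.0047. Vil1, the villin of microvilli, fell by 0.51 and Abcb1a, a drug efflux pump, fell by 1.66 on the log2 scale. Genes known as targets of HNF4 had lower values in 10 of 13 (median -0.50), and the fatty acid binding protein Fabp2 alone passed (-0.93). These lists are not separate from the small intestine epithelium markers: Vil1, Mep1a, Alpi and Cdh17 of the CDX targets and Fabp2 of the HNF4 targets make 5 of those 7 markers, and Vil1 and Fabp2 are the ones among them that passed. All 5 distal small intestine genes tested had lower values, and 3 passed, where 2.79% of all genes were called lower. These were Cubn (-2.60), the cobalamin receptor, and Slc51b (-0.75) and Slc51a (-0.69), the subunits of the bile acid exporter. Fabp6 (-0.54) and Slc10a2 (-0.11) did not pass. Of the 4 proximal ones, Lct (13.2 to 19.3) and the iron reductase Cybrd1 (17.1 to 21) lay near the array medians. The median proximal gene lay at the 50.1 percentile and the median distal one at the 98.1 percentile, so the 2 lists do not compare regions evenly. None of the 4 passed in limma, where the iron exporter Slc40a1 (0.48) and Cybrd1 (0.14) had the smallest p. Of the 4, Slc40a1 alone had an unadjusted p under 0.05, as 2651 of 13644 genes did. The calls of these 6 genes and of Foxa1, Gata5, Klf10 and Ctbp2 were all lost without control replicate 1 and without control replicate 2 (largest limma adjusted p 0.143 to 0.328). Some were also lost without knockout H replicate 4 (Foxa1, Gata5, Klf10, Ctbp2, Vil1, Abcb1a, Fabp2), H replicate 5 (Gata5, Klf10, Ctbp2, Abcb1a, Slc51a) or L replicate 3 (Foxa1, Gata5, Klf10, Abcb1a, Fabp2, Slc51a). That of Abcb1a was also lost without L replicate 1 or 2, with no filter and with a trended, robust variance prior (limma adjusted p from 0.057 to 0.0664). Those of Klf10 (0.57, limma adjusted p = 0.0589) and Ctbp2 (0.39, 0.061) were also lost without the 2 arrays highest in lung markers, and that of Ctbp2 within the lower number range and with the letter as the only covariate (0.39 and 0.29).

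**Figure D4:**
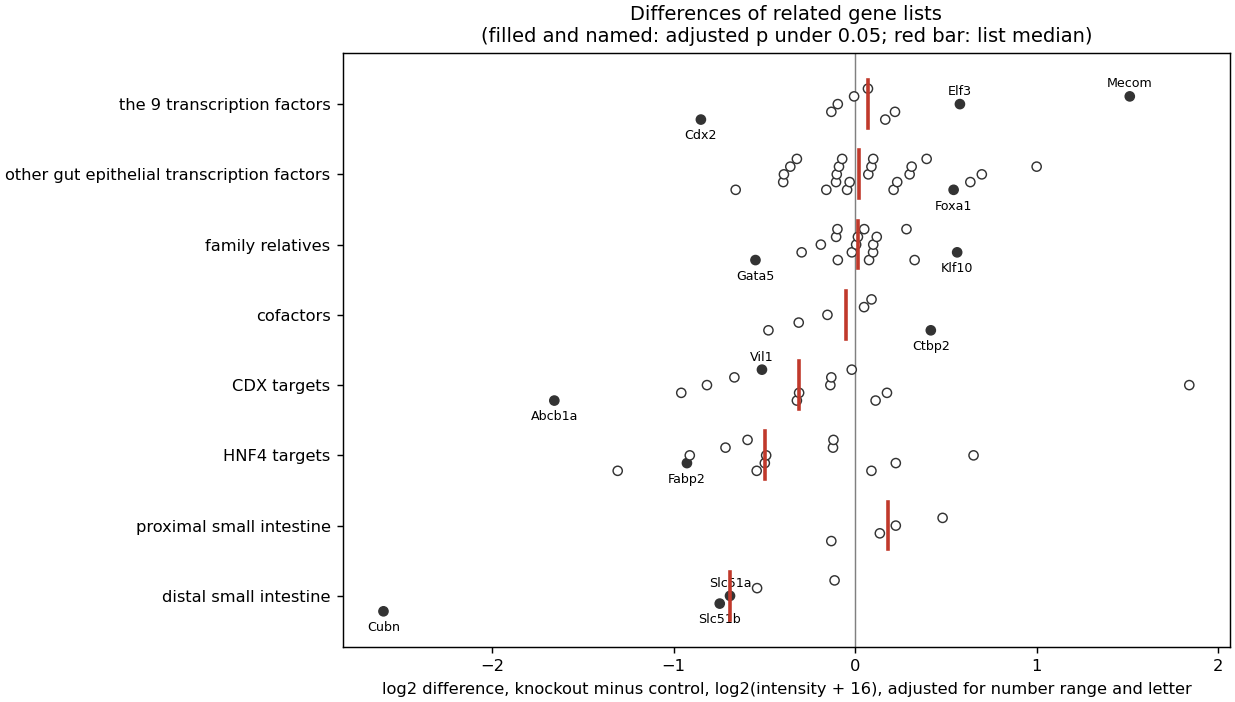
Log2 difference, knockout minus control, of each gene tested in the 9 factors and 7 related lists, filled and named where the adjusted p was under 0.05, with the list median as a red bar. Medians of the CDX targets (-0.31), HNF4 targets (-0.50) and distal genes (-0.69) lie below 0, those of the transcription factor lists near 0.

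The genes whose pattern over the 10 arrays was most like that of each changed factor were named by the highest Pearson r. For Cdx2 they were Pdlim2 (0.987), Slc51a (0.971) and Ttc39c (0.971). For Elf3 they were Zdhhc13 (0.959), Aqp4 (0.946) and C1galt1 (0.943), and for Mecom Tmprss2 (0.979), Galnt3 (0.975) and Ttc39a (0.968). These values describe the same arrays on which knockouts and controls form separate groups. Among the 8 knockouts alone, Mecom kept values of 0.97, 0.923 and 0.915 with its 3 genes, Cdx2 0.898, 0.737 and 0.669, and Elf3 0.787, 0.878 and 0.503. For the factors that did not pass, the most alike genes were Pllp and Cd248 for Cdx1 (0.911 and 0.92), Fbxo6 for Hnf4a (0.935), H3f3b for Hnf4g (0.909), Otc for Gata4 (0.909), Cask for Gata6 (0.901) and Rbm48 for Klf5 (0.933).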

How the data were processed

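Total RNA of 10 samples was hybridised to 1-colour oligonucleotide arrays. For every probe set the authors deposited 1 linear intensity an array. How the signal was summarised or normalised upstream is not given in the sources used here. Medians of the arrays were 18.4 to 18.9 and 75th percentiles differed by at most 1.07 times, so no further normalisation was applied. The 64 array controls among 45101 probe sets were dropped. The platform annotation gave 1 gene symbol for 34945 of the rest, several for 932 and none for 9160. Of the 34945, 34741 had their gene identifier in the RefSeq gene list of GRCm38.p6 and took the symbol given there. Genes with several symbols on a probe set were not named from it.

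Values were taken as log2(intensity + 16), which understates changes of dim genes. Each gene was read by its brightest probe set, only genes whose mean exceeded the 25th percentile (intensity 13.6) were kept, and the lmFit and eBayes functions of limma 3.58.1 (R 4.3.3) tested 13644 genes, with number range and letter as covariates. With both controls in the lower range, the knockout difference rests on the 3 knockouts and 2 controls there. H, L, range and letter differences came from 1 fit of 3 groups. A fit of each probe set gave the values of single probe sets. Arrays carry no read depth; their number limits precision, above all the 2 controls. On simulated arrays with known changes, 88.0% of changes of 1 and 98.0% of changes of 2 on the log2 scale were recovered for knockout versus control over 13644 genes, with 9 false calls. The simulated noise was independent from gene to gene and held no effect of range, letter or tissue content. This checks the fit and does not give its power on these arrays. Changes under 1 were not simulated. No 2 arrays held identical values.

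The members and lists were chosen with earlier results of these data known. Of the related lists, genes past the threshold were named, or the 2 with the smallest p, and of the distal list all 5. The marker lists are given by their sums, and those of crypt and small intestine epithelium also gene by gene. Levels of Sftpc, Scgb1a1, Lgr5, Ascl2 and other single marker or proximal genes, and single arrays, were picked after their values were seen. Alternatives changed the covariates, pseudocount, filter, probe set rule, normalisation and variance prior, added marker levels as covariates and left out arrays. Plots were drawn with matplotlib 3.10.9.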

Additional observations from a re-analysis of the deposited data

Results flagged for a closer look

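In 64 groups of arrays examined (19 probe sets of the 9 factors and 13 named genes, each in knockouts H and in all 8 knockouts), 3 held an array far from the others; chance gives about 1 in 20. On the Cdx2 probe set 1422074_at knockout H replicate 2 read 147, against 169 for the next. On the Klf5 probe set 1451021_a_at knockout H replicate 3 read 1992, against 1701. For Ctbp2 knockout H replicate 5 read 225, against 197.

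For 2 probe sets the knockouts of the upper number range lay on 1 side of the control mean and those of the lower range on the other, which was seen without a test of that separation; ranges of knockouts lay apart for 13.5% of all probe sets tested. For Hnf4a, 1450447_at averaged 238 in the upper range, 358 in the lower and 306 in the controls. For Klf5, 1451739_at averaged 605, 424 and 459. The limma range differences of both, -0.39 and 0.32, did not pass (adjusted p = 0.383 and 0.315).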

How the results depend on the processing

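For knockout versus control, 3 members passed in the reported setting and 2 or 3 in every alternative that kept both controls; leaving out single arrays gave 0 to 3. For knockout H versus control the count of 2 became 1 with a pseudocount of 1, 0 without the 2 arrays highest in lung markers, and 0 to 3 with single arrays left out. It became 3, with Mecom added, without covariates, with a filter at the 50th percentile and with lung, smooth muscle or pan-epithelial markers as covariate (limma adjusted p of Mecom from 0.00204 to 0.0446). For knockout L versus control the count of 0 became 3 without covariates and 2 with the letter alone, the range alone, lung markers or pan-epithelial markers as covariate, and 0 to 2 with single arrays left out. H versus L, the ranges and the letters gave 0 in every alternative. In the reported fits and all 26 alternatives Cdx2 stayed lower (-0.89 to -0.75), and Elf3 (0.50 to 0.62) and Mecom (0.55 to 1.84) higher in knockouts. That range of Cdx2 does not cover its dimmer probe set 1422074_at, which gave -0.68 by itself.

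Differences that did not pass changed sign as follows. Hnf4g was 0.036 without covariates, 0.047 with the letter alone, 0.015 with the range alone and in the lower range alone, 6e-04 with quantile normalization, 0.0058 without knockout L replicate 2, 0.14 without L replicate 3 and 0.20 without control replicate 1 (-0.20 to 0.20 with single arrays left out). Cdx1 was -0.0115 without covariates, Hnf4a 0.079 with all probe sets averaged and Gata6 -0.017 without control replicate 2 (up to 0.38 without control replicate 1). Of the 934 values of the 39 other member differences, 50 had another sign and 0 passed.

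Over all genes, the 588 calls of knockout versus control became 1366 without covariates, 1222 with the letter alone, 1014 in the lower range alone, 945 with lung markers and 890 over probe sets. They fell to 121, 191, 263, 0 and 57 without knockout H replicate 4, L replicate 3, H replicate 5, control replicate 1 and control replicate 2. The 331 calls in knockouts H ran from 0 to 878 over the alternatives, the 47 in knockouts L from 0 to 578, the 41 between ranges from 0 to 150 and the 3 between letters from 2 to 7. No paired analysis was possible because the labels carry no replicate numbers shared between groups.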
